A study of Mus musculus with 29 samples.

Results

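Among T cell receptor beta chains (TRB) sequenced from metastases of a Braf-mutated melanoma in the mouse, taken from brain and ovary, 158 of 27384 productive beta clonotypes were found in 3 or more of the 10 numbers that the sample titles carry. A clonotype is defined here by its V and J names and its CDR3 in amino acids, and these 158 were selected on presence alone, a count above 0 in a number with its brain and ovary samples joined. They are called public here, and the 26581 clonotypes found in 1 number are called private. The remaining 645 were found in 2 numbers, just outside the rule.

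The data were 29 samples, 19 from brain and 10 from ovary, each labelled as total RNA of an experimental metastasis model. The untreated samples (no treatment in the labels, vehicle in the titles) and those of the anti-PD-L1 lead-in were from day 0. The samples of trametinib, of trametinib given with anti-PD-L1 (the concurrent combination) and of a lead-in of anti-PD-L1 before that pair of agents (the lead-in combination) were from day 3. Anti-PD-L1 antibodies block a ligand that restrains T cells through PD-1, and trametinib is an inhibitor of MEK, a kinase of the MAPK pathway. Each treatment had 2 numbers in brain and 1 in ovary. Numbers 3 and 7 were untreated, 10 and 11 lead-in, 8 and 13 trametinib, 1 and 6 concurrent, and 12 and 14 lead-in combination. Numbers 1, 3, 10, 12 and 13 had samples of both organs. Most numbers had parts 1 and 2, whose counts were summed. The labels do not say what a number or a part is, nor give the strain or age of the mice, so every p-value below measures the spread between numbers only.

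The beta chain of a T cell receptor is built by joining a V, a D and a J segment, and bases are trimmed and added at random at the joints. The CDR3 spans these joints and is the most variable loop facing the antigen. Most rearrangements are therefore found in a single individual, while public receptors recur in many. In the literature, recurrent sequences are known to hold few added bases, and many different rearrangements can encode the same amino acids.

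The most widely found public clonotypes with a CDR3 of 14 residues or fewer are printed first, since the results turn on how short their middle part is and on how they repeat each other. The first 6 are from the 10 clonotypes found in most numbers, the next pair each lie 1 residue from one of these, and the last pair reached the highest and the third highest share of any number.

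TRBV20 with TRBJ2-7, 9 numbers: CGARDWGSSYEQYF
TRBV3 with TRBJ1-3, 8 numbers: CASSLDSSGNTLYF
TRBV5 with TRBJ2-7, 7 numbers: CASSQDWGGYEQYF
TRBV12-1 with TRBJ2-7, 7 numbers: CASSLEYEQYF
TRBV13-1 with TRBJ2-3, 6 numbers: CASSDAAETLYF
TRBV13-2 with TRBJ2-3, 5 numbers: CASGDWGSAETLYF
TRBV5 with TRBJ2-7, 4 numbers: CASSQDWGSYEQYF
TRBV13-1 with TRBJ2-3, 5 numbers: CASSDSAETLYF
TRBV16 with TRBJ2-7, 3 numbers: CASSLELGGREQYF
TRBV1 with TRBJ1-1, 3 numbers: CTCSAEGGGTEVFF

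Each printed CDR3 begins with the residues of its V segment and ends with those of its J segment. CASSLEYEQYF, for example, holds the leading CASSL that is commonest among TRBV12-1 clonotypes and the trailing YEQYF of TRBJ2-7, with 1 residue between them. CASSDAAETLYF holds CASS of TRBV13-1 and AETLYF of TRBJ2-3 with 2 residues between.

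Of the 158 public clonotypes, 117 were found in 3 numbers, 20 in 4, 12 in 5, 2 in 6, 4 in 7, 2 in 8 and 1 in 9. None was found in all 10. The 5 numbers with both organs were much deeper than the rest, and 86 of the 158 were found in 3 or more of those. Total TRB counts ran from 605 in number 7 to 82128 in number 10, and the 158 had 3 members in the first and 96 in the second, with a median of 62.5 over the 10 numbers. They made up 1.23% to 5.25% of the clonotypes of a number (median 2.00%) and 1.32% to 10.5% of its TRB counts (median 6.92%). Ovary held 85.5% of all TRB counts. By organ, 139 of the public clonotypes were found in both, 18 in ovary only and 1 in brain only. With 2 numbers to a treatment, any 3 numbers cover at least 2 treatments. By treatment, 10 of the public clonotypes were found in all 5, 18 in 4, 98 in 3 and 32 in 2. Their total counts ran from 4 to 1624 with a median of 37, and 106 kept their place when a number had to hold at least 2 counts.

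The clonotype of most numbers, TRBV20 with TRBJ2-7, had few counts in each. It had 1 count in numbers 1 and 3, 2 in number 8, 4 in number 7, 9 in number 10, 13 in number 6, 14 in number 12, 16 in number 11 and 19 in number 14. Number 13 had 0 of 36953 counts, which allows a share of up to 0.00812%, a limit taken here and below as 3 counts of the total. Its share of TRB counts was highest in number 7, at 0.661% (exact Clopper-Pearson 95% interval 0.180% to 1.68%). Such intervals and limits cover counting error only. Of its 79 counts 70 were from brain, where it was found in 8 numbers, and 9 were from ovary, all in number 10. Pooled over samples it held 0.167% of brain and 0.00364% of ovary TRB counts, a ratio of 46.0. Over the 139 public clonotypes found in both organs this ratio had a median of 0.915. The pooled ratio joins different numbers, and 54 of the 70 brain counts came from numbers without an ovary sample. Where both organs were sampled, numbers 1, 3 and 12 had 1, 1 and 14 counts in brain and 0 in ovary, which allows shares of up to 0.00655%, 0.00693% and 0.00722% there. Number 10 had 0 in brain and 9 in ovary, and number 13 had 0 in both.

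The TRBV3 clonotype with TRBJ1-3 had 128 counts in number 1, 168 in number 3, 156 in number 10 and 55 in number 13, but 15 or fewer in numbers 6, 11, 12 and 14. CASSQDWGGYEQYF had 198 counts in number 10, 51 to 56 in numbers 1, 12 and 13, 36 in number 14, 11 in number 11 and 10 in number 3. These 7 numbers cover the untreated, lead-in, trametinib, concurrent and lead-in combination groups. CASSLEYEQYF was more abundant, with 459 counts in number 10, 317 in number 1, 108 in number 11, 68 in number 14, 53 in number 13, 49 in number 12 and 1 in number 6. Its share reached 1.64% of the TRB counts of number 11, where only brain was sampled. It also occurred under the names TRBV16 and TRBV29 with the same J segment.

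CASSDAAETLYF had 375 counts in number 10, 159 in number 13, 51 in number 11, 23 in number 14, 8 in number 1 and 3 in number 3. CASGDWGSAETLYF had 198 in number 3, 148 in number 10, 58 in number 13, 45 in number 12 and 4 in number 14. Neither was found in numbers 6, 7 and 8, where only brain was sampled and totals were lowest. Gaps were not confined to such numbers: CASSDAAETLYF had 0 of 53884 counts in number 12, which allows a share of up to 0.00557%, and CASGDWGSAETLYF had 0 of 50381 in number 1, which allows up to 0.00595%. The other 4 of the 10 clonotypes had CDR3s of 15 residues. They were a TRBV3 clonotype with TRBJ2-1 (8 numbers, 507 counts), 1 with TRBV5 and TRBJ2-4 (7 numbers, 133 counts), 1 with TRBV5 and TRBJ1-4 (7 numbers, 40 counts) and 1 with TRBV31 and TRBJ1-6 (6 numbers, 313 counts).

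**Figure D1:**
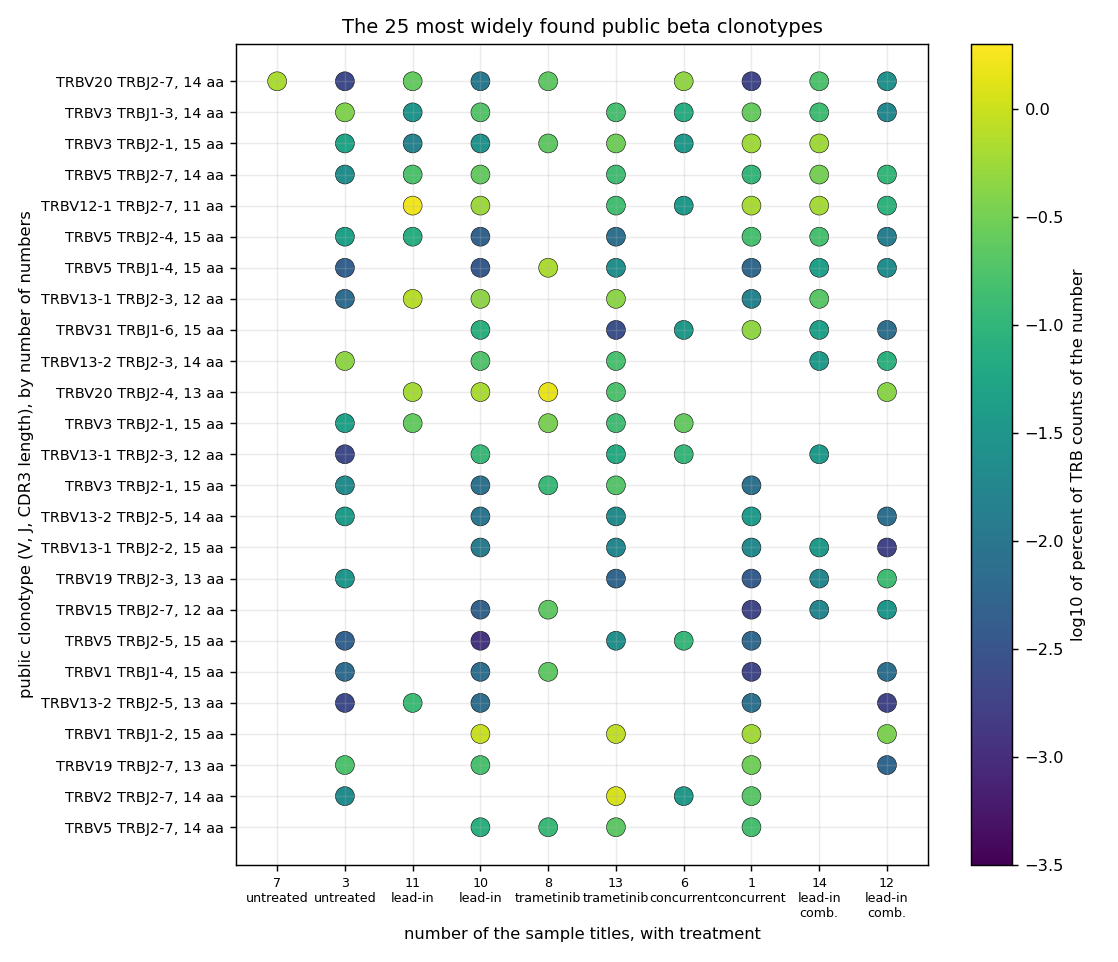
Share of TRB counts (colour, log10 of percent) of the 25 public clonotypes found in most numbers (rows, named by V, J and CDR3 length in amino acids, aa) in each of the 10 numbers (columns, with their treatment). A missing point is a count of 0. The TRBV20 clonotype at the top has a point in 9 columns, and number 7, with 605 TRB counts, holds no other clonotype of the 25.

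Public clonotypes were a larger part of the large clonotypes than of all clonotypes, and most large ones were still private. Of 101 clonotypes that held 1% or more of a number's TRB counts, 85 (84.2%) were found in that number alone, 8 in 2 numbers and 8 (7.92%) were public. Of all 27384 clonotypes 97.1% were private and 0.577% public. Size over all numbers is part of the rule, so these shares are a description. The highest share of a public clonotype, 2.76% in number 3, belonged to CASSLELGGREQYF, which had 1210 counts there, 5 in number 8 and 1 in number 12. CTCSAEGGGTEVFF had 1264 counts in number 10 (1.54%), 146 in number 12 and 94 in number 14. The largest clonotype of any number, with 4643 counts (5.65% of number 10), was found in no other number. Of 64 clonotypes with 500 or more counts in a number, 53 (82.8%) were in 1 number, 5 in 2 and 6 (9.38%) were public. Whether reads moved between libraries was not tested.

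The other 5 public clonotypes of 1% or more are named after their values were seen. A TRBV20 clonotype with TRBJ2-4 and 13 residues held 1.48% of number 8 with 13 counts, and had 532 in number 10, 229 in number 12, 61 in number 13 and 41 in number 11. A TRBV2 clonotype with TRBJ2-7 had 430 counts in number 13 (1.16%), 104 in number 1, 9 in number 3 and 1 in number 6. A TRBV12-1 clonotype with TRBJ2-1 had 855 counts in number 10 (1.04%), 3 in number 7 and 1 in number 3. A TRBV5 clonotype with TRBJ2-3 had 122 counts in number 14 (1.09%), 215 in number 10 and 6 in number 13, and a TRBV16 clonotype with TRBJ2-4 had 9 counts in number 8 (1.02%), 65 in number 14, 2 in number 10 and 1 in number 13. In number 8, with 881 TRB counts, 9 counts are enough for 1%.

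Public CDR3s were short. Over the 9 numbers with at least 10 public clonotypes, their mean length lay between 13.5 and 13.9 residues (median 13.7), and that of the private clonotypes of the same numbers between 13.9 and 14.1 (median 14.04). The ranges did not overlap, and length was lower for public clonotypes in 9 of 9 numbers. The means over numbers were 13.7 ± 0.106 and 14.1 ± 0.0747 residues (SD, n = 9), a difference of -0.320 residues (exact two-sided sign-flip permutation test over numbers, p = 0.00391, the smallest that 9 numbers allow, adjusted p = 0.00446 over 8 measures). The difference was largest in number 1, at -0.492 residues, and -0.00537 in number 8, which had 17 public clonotypes. Public clonotypes ranged from 10 to 16 residues.

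The same clonotypes enter several numbers, so the numbers are not independent in these tests. In a further run, every public clonotype was counted in only 1 of its numbers, here and below that where its share of TRB counts was highest. Number 8 then kept 11 of its 17 public clonotypes and number 10 kept 20 of 96. The length difference was -0.354 residues and again negative in 9 of 9 numbers (exact sign-flip permutation p = 0.00391, adjusted p = 0.00469).

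The shortening lay in the middle of the CDR3. A leading run was counted as the residues that match the commonest residues of the V segment in the table from the first residue on, a trailing run as those that match the J segment from the last residue back, and the middle as what is left. This is a measure made from the table and not an alignment to germline sequence. Public clonotypes had 3.66 ± 0.198 middle residues against 4.62 ± 0.132 in private ones (SD, n = 9), a difference of -0.964 (exact sign-flip permutation p = 0.00391, adjusted p = 0.00446). It was negative in 9 of 9 numbers, from -1.27 in number 1 to -0.331 in number 8, and the public and private values did not overlap. Their leading runs were longer by 0.305 residues (4.42 against 4.11) and their trailing runs by 0.338 residues (5.66 against 5.32), each in 9 of 9 numbers with the same exact permutation p. Counted in only 1 number each, public clonotypes again had fewer middle residues in 9 of 9 numbers, 3.62 against 4.62 (exact permutation p = 0.00391, adjusted p = 0.00469).

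Over all clonotypes together, 28 of 158 public clonotypes (17.7%) had 2 or fewer middle residues, against 6.52% of private ones. Clonotypes of exactly 2 numbers resembled the public ones, with 3.71 middle residues on average, against 3.62 in those of exactly 3 numbers and 4.70 in private ones. Their mean lengths were 13.63, 13.62 and 14.08 residues. In length and middle residues the clonotypes of 2 and of 3 numbers were thus close to each other, on either side of the threshold. Length did not fall further with wider sharing. The 20 clonotypes of exactly 4 numbers had a mean of 13.90 residues and the 21 of 5 or more 13.86, nearer to the private mean. Their middle residues, 3.60 and 3.57, stayed few.

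**Figure D2:**
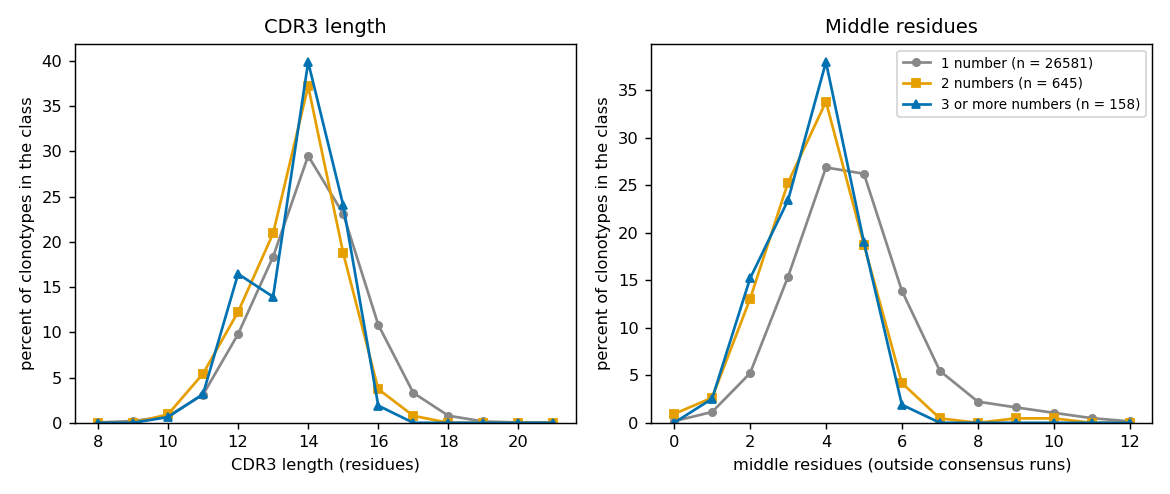
Percent of clonotypes (y axis) by CDR3 length in residues (left) and by middle residues outside the consensus runs (right), for private clonotypes (grey circles), those of 2 numbers (orange squares) and public ones (blue triangles). The public and 2-number curves fall to the left of the private one in the right panel, and public clonotypes end at 16 residues in the left panel. The axes leave out the few private clonotypes beyond their ends.

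Many public clonotypes carried DWG in the CDR3, 3 residues that 1 reading frame of the mouse TRBD2 segment encodes. DWG was found in 26 of 158 public clonotypes (16.5%), in 9.92% of those of 2 numbers and in 5.55% of private ones. Within a number, 13.7% to 35.3% of public clonotypes held it (median 21.6%) and 4.02% to 7.72% of private ones (median 5.56%), higher in 9 of 9 numbers. All 26 carried a TRBJ2 segment, as did 98.8% of the 1476 private clonotypes with DWG. TRBD2 lies downstream of the TRBJ1 cluster and joins TRBJ2 segments. Of the 26, 8 had TRBV13-2 and 4 had TRBV3, and 9 had TRBJ2-7. DWG was looked for anywhere in the CDR3, not in the middle alone. The leading run of TRBV13-2 is CASGD, so in those 8 the D of DWG lies in that run. Which segment encoded it was not tested. The other words looked at differed less in percentage points. GTG was in 5.06% of public and 5.96% of private clonotypes, GLG in 1.90% and 3.75%, and GQG in 1.27% and 3.57%. DRG was in 2.53% and 2.98%, and TGG in 6.33% and 6.30%. GQG was lower in public clonotypes in 9 of 9 numbers, with differences of -4.45 to -1.01 points. These words were chosen after the sequences had been seen and were not tested. Glycine made up 29.7% of the middle residues of public clonotypes and 26.8% of those of private ones, a difference of 2.90 percentage points, higher in 7 of 9 numbers (exact sign-flip permutation p = 0.0273, adjusted p = 0.0273). That difference turned to -4.77 points with a rule of 4 or more numbers and to -5.11 with brain samples alone.

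Public clonotypes also had more close relatives. A neighbour was a clonotype of the same V, J and length that differed in 1 residue and was private to a number other than the one measured. Counting only neighbours in numbers that did not hold the clonotype itself, 65.2% ± 4.48 of public and 26.5% ± 3.40 of private clonotypes had a neighbour (SD, n = 9), a difference of 38.7 percentage points and higher in 9 of 9 numbers (exact sign-flip permutation p = 0.00391, adjusted p = 0.00446). Public values ran from 59.0% to 70.6% and private ones from 22.8% to 30.7%. Counting neighbours in any other number, where errors in reading the clonotype itself could enter, the shares were 92.4% and 26.5%. The stricter count was added after the data had been seen.

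Some public clonotypes were also neighbours of each other. Of the 158, 30 fell into 12 families of the same V, J and length, joined by steps of 1 residue. The share in other sets of 158 clonotypes was not computed, so this count is a description only. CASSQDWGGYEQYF and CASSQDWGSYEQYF, both TRBV5 with TRBJ2-7, differ at residue 9 from the first cysteine. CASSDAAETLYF and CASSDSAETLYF differ at residue 6. The largest family had 4 members of TRBV3 with TRBJ2-1 and 15 residues, which differ from each other at residue 5 alone. Its most widely found member was found in 8 numbers and another 2 in 5 each. The same CDR3 and J segment occurred under at least 1 further V name for 46 of the 158 (29.1%), against 7.92% of private clonotypes.

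Public clonotypes were more abundant within a number. By the rule, whether a clonotype present in a number is public depends on the other numbers and not on its own count there. This holds only if no reads moved between libraries, which was not tested. The mean log2 count of public clonotypes ran from 1.18 in number 6 to 4.11 in number 10 (median 2.91) and that of private ones from 1.00 to 1.73 (median 1.55). Public values were higher in 9 of 9 numbers, with means of 2.75 ± 0.924 and 1.48 ± 0.274 (SD, n = 9), 1.27 log2 units apart (exact sign-flip permutation p = 0.00391, adjusted p = 0.00446). A single count was all that 18.1% of public and 34.8% of private clonotypes had, a difference of -16.7 percentage points with the same exact permutation p. Among clonotypes of 2 or more counts in the number, a comparison added after the data were seen, the log2 difference was 1.03 and again positive in 9 of 9 numbers (exact permutation p = 0.00391, adjusted p = 0.00456). With that minimum set for the private ones alone, which takes low values from 1 side only, it was 0.498 and did not pass (exact permutation p = 0.0547, adjusted p = 0.0638). Over the whole table the median total count was 37 for public, 9 for 2-number and 3 for private clonotypes, but a clonotype of more counts can be found in more numbers, so those totals are part of the rule.

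**Figure D3:**
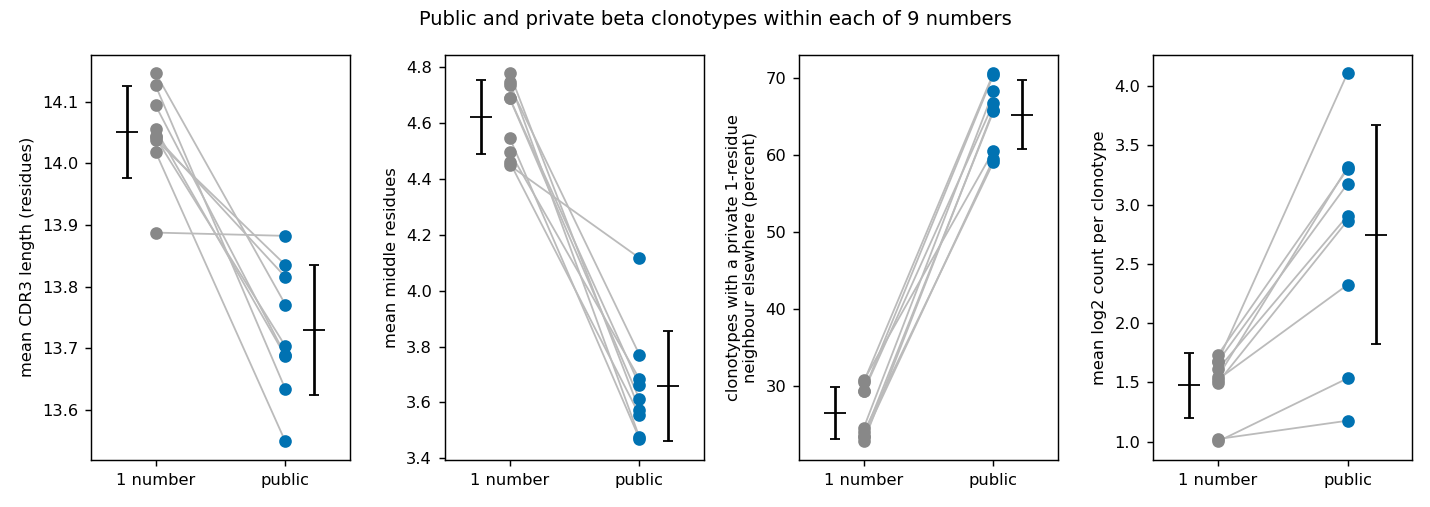
Public and private clonotypes within each of 9 numbers, for mean CDR3 length (residues), mean middle residues, percent with a private 1-residue neighbour in a number without the clonotype, and mean log2 count. Lines join the values of a number, and black bars give mean and SD. Length and middle residues are lower for public clonotypes in 9 of 9 numbers, and neighbours and log2 counts are higher.

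The V and J segments of public clonotypes differed from those of private ones when each was counted in every number that held it. Counted in only 1 number each, as given below, 0 of 34 segments passed after adjustment. Of 34 segments tested (22 TRBV, 12 TRBJ), 15 (44.1%) passed an adjusted p of 0.05 in the exact sign-flip permutation test over 9 numbers, 5 higher and 10 lower in public clonotypes, and 17 had an unadjusted p of 0.05 or less. TRBJ2-7 carried 21.2% to 47.1% of the public clonotypes of a number (median 29.7%) and 18.3% to 26.0% of the private ones (median 20.4%), with means of 30.8% and 20.6% and higher public values in 9 of 9 numbers (exact permutation, adjusted p = 0.0148). It was carried by 46 of the 158 public clonotypes. TRBV3 carried 15.5% of public and 8.73% of private clonotypes, TRBV13-1 10.6% and 4.86%, and TRBV5 8.44% and 4.29%, each higher in 9 of 9 numbers with the same adjusted p. They had 22, 16 and 10 members, where 158 clonotypes would hold 13.6, 7.57 and 6.82 at the private shares. TRBV20 had means of 5.67% and 2.52% (exact permutation, adjusted p = 0.0204), but it had only 5 members, and at the private share 158 clonotypes would hold 3.67. Its mean rested on few clonotypes in the shallow numbers, such as number 8, where it reached 17.6%.

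Of the lower segments, TRBV29 differed most, with 3.09% of public and 9.38% of private clonotypes and lower public values in 9 of 9 numbers. Its public share was at most 5.88% and its private share at least 7.59%, so the values did not overlap. TRBJ1-1 had 4.58% and 9.81%, and TRBV17 had 1.22% and 4.11%, both lower in 9 of 9 numbers (exact permutation, adjusted p = 0.0148 for these 3 segments). TRBV17 had only 2 members, and in brain samples alone it differed by -1.01 points (exact permutation, adjusted p = 0.584). TRBV12-2 (1.59% and 4.40%), TRBV13-3 (1.37% and 3.71%), TRBV26 (0.539% and 2.50%) and TRBV4 (0.380% and 2.37%) had 3 members or fewer each, with adjusted p-values of 0.0148 to 0.0285 in the same exact permutation test. TRBV23, TRBV24 and TRBV30 had 0 members among the 158. At their private shares 158 clonotypes would hold 1.16, 0.131 and 0.761 of them, so their lower share says little.

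Public clonotypes recur in several numbers, and the segment tests count them in each. With each public clonotype counted in only 1 number, the 15 segments all kept their sign, 11 of 34 had an unadjusted exact permutation p of 0.05 or less, and 0 passed after adjustment, the smallest adjusted p being 0.0885. In exact permutation tests, TRBJ2-7 was then higher by 9.12 points (p = 0.0391, adjusted p = 0.121), TRBV3 by 4.87 (p = 0.0273, adjusted p = 0.121) and TRBV13-1 by 5.37 (p = 0.0195, adjusted p = 0.111), while TRBV20 was higher by 0.645 and in only 3 of 9 numbers (p = 0.926). TRBV5 then differed by 2.89 points and was higher in 5 of 9 numbers (exact permutation p = 0.223, adjusted p = 0.473). TRBJ1-1 differed by -3.69 points and was lower in 6 of 9 (exact permutation p = 0.145, adjusted p = 0.351). Each of the 9 numbers then had 11 to 22 public clonotypes, and the part of fewer clonotypes in the lost calls was not tested. With clonotypes weighted by count 8 of 34 segments passed, and TRBJ2-7 (9.001 points, adjusted p = 0.229), TRBV3 (1.73, adjusted p = 0.429) and TRBV29 (-5.34, adjusted p = 0.0775) were not among them in the exact permutation test. The 158 used 81 of the 264 combinations of the 22 V and 12 J segments, most often TRBV13-2 with TRBJ2-7 (7 members), TRBV16 with TRBJ2-7 (7) and TRBV3 with TRBJ2-1 (6). Among clonotypes of exactly 2 numbers TRBJ2-7 held 24.2%, TRBV3 11.5% and TRBV29 7.91%, and among those of exactly 3 numbers 30.8%, 14.5% and 5.13%.

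**Figure D4:**
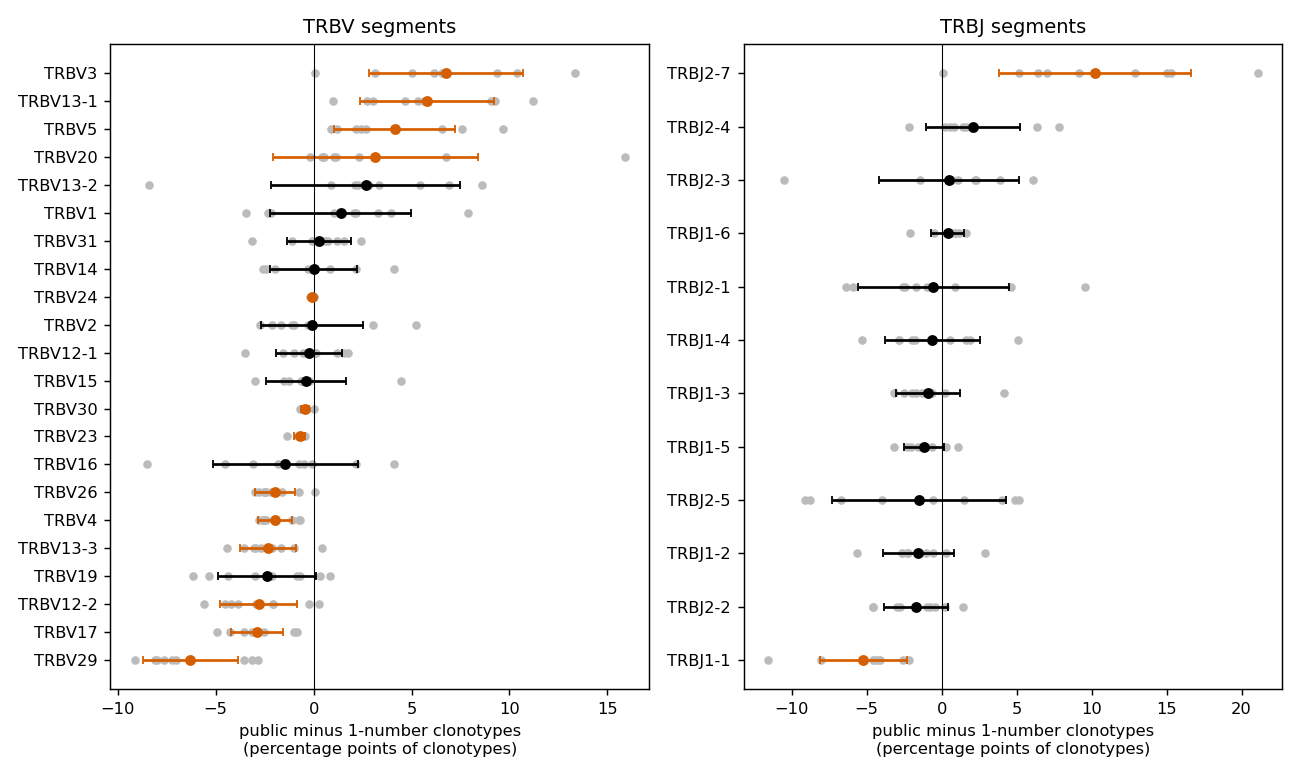
Difference between public and private clonotypes in the percent carrying each TRBV (left) and TRBJ (right) segment, in percentage points. Grey points are the 9 numbers, larger points the mean with SD, orange where the adjusted p was 0.05 or less. Public clonotypes are counted in every number that held them. TRBV3, TRBV13-1 and TRBJ2-7 lie above 0 in 9 of 9 numbers and TRBV29 below it.

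No difference between treatments in the share of public clonotypes passed the test. In brain they held 3.05% and 1.32% of the TRB counts of the untreated numbers 3 and 7, 3.62% and 7.63% of the lead-in numbers 10 and 11, and 7.60% and 4.003% of the trametinib numbers 8 and 13. The concurrent numbers 1 and 6 had 4.86% and 3.29%, and the lead-in combination numbers 12 and 14 had 4.40% and 6.82%. The untreated values were the lowest, with a mean of 2.19% ± 1.22 (SD, n = 2) while the other treatments had means of 4.07% to 5.80%. The lowest of all, number 7, rested on 8 counts of 3 clonotypes (exact Clopper-Pearson 95% interval 0.573% to 2.59%).

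Differences between the 5 treatments made up 48.8% of the squared deviations from the mean (exact permutation p = 0.403, adjusted p = 0.538 over 4 tests). Samples of the same day had a share 1.86 points higher after a lead-in (exact two-sided permutation p = 0.222, adjusted p = 0.538) and 0.925 points higher after any anti-PD-L1 (exact p = 0.567, adjusted p = 0.567). With trametinib it differed by 1.25 points (exact permutation p = 0.390, adjusted p = 0.538), and trametinib and day cannot be told apart there. The smallest p that the tests allow is 0.00106 for the 5 treatments, 0.0111 within day and 0.00476 for trametinib. Without number 11 the anti-PD-L1 difference was -0.162 points.

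Public clonotypes held more of the counts of ovary than of brain metastases in 4 of 5 numbers, a difference that did not pass when the organs were paired or the members were chosen in other ways. The members were found mostly through the deeper ovary samples, 60 of them in 3 or more ovary numbers against 30 in 3 or more brain numbers. In the 5 numbers sampled in both, they held 6.83% of ovary counts in number 1, 7.07% in number 3, 10.6% in number 10, 3.99% in number 12 and 7.26% in number 13, against 4.86%, 3.05%, 3.62%, 4.40% and 4.003% of brain counts. Number 12 was the exception, and the ranges overlapped. The means were 7.15% ± 2.35 and 3.99% ± 0.696 (SD, n = 5), a difference of 3.16 percentage points (exact two-sided permutation p = 0.0317). Paired by number, the exact sign-flip permutation test gave p = 0.125, where 5 pairs cannot give less than 0.0625. Without numbers 1, 3, 10 or 13 the unpaired test gave exact permutation p-values of 0.0857 to 0.114, and its difference without number 10 was 2.21 points. With clonotypes chosen only from 2 or more other brain numbers the difference was 1.92 points (exact permutation p = 0.127), and from 2 or more other ovary numbers 1.91 points (p = 0.103). With a rule of 4 or more numbers it was 1.79 points (exact permutation p = 0.103) and with V names joined 1.90 points (p = 0.206).

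As a percent of distinct clonotypes the direction turned. Public clonotypes made up 1.80% ± 0.290 of ovary and 3.39% ± 0.595 of brain clonotypes (SD, n = 5), -1.59 points and lower in ovary in 5 of 5 numbers (exact unpaired permutation p = 0.00794). Paired by number, the exact sign-flip permutation test gave p = 0.0625, the smallest that 5 pairs allow, so that it could not pass. Brain had 622 to 12311 TRB counts in these numbers and ovary 35629 to 81190. The part of depth in either result was not tested.

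**Figure D5:**
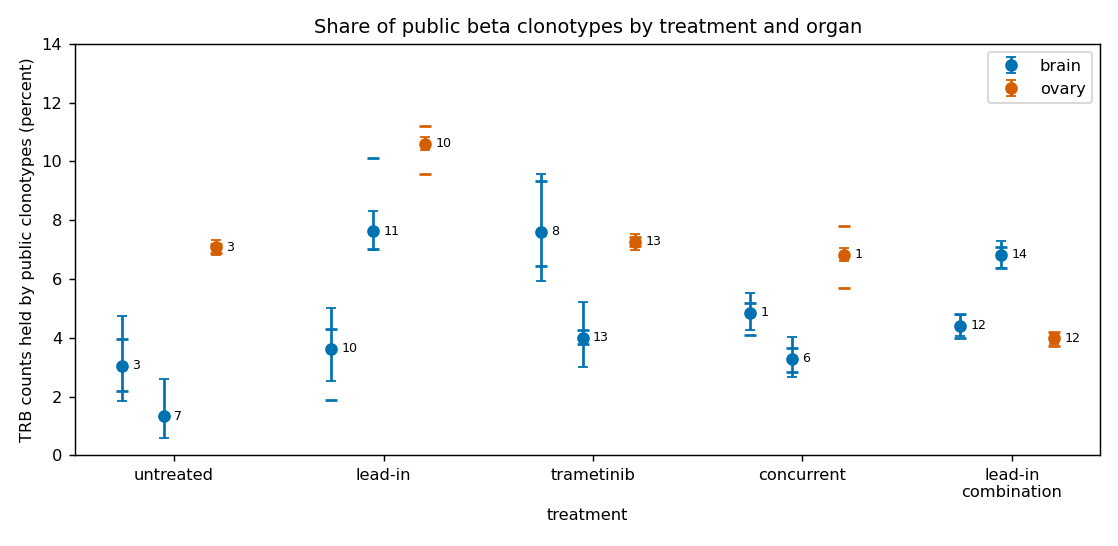
Percent of TRB counts held by public clonotypes (y axis) by treatment (x axis), for brain (blue) and ovary (orange). Points are numbers with their exact 95% interval, dashes their parts, and labels the numbers. Ovary number 10 is highest at 10.6% and brain number 7 lowest at 1.32%, and the pair of brain numbers farthest apart within a treatment is that of the lead-in, 3.62% and 7.63%.

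Numbers of the same treatment shared somewhat more public clonotypes in brain than other pairs, a difference that did not pass the test and that depended on how the members were chosen. Overlap was the number of shared public clonotypes divided by the geometric mean of the numbers held by each. It was 37.7% for the concurrent pair (13 shared), 28.1% for the lead-in combination (15 shared), 21.7% for trametinib (4 shared), 18.3% for the untreated pair (1 shared) and 5.13% for the lead-in pair (1 shared). The other 40 pairs ran from 0% to 34.7% with a median of 16.6%. The mean was 22.2% within and 16.8% between treatments (exact one-sided permutation test over 945 pairings, p = 0.0698). The test passed with a minimum of 2 counts in a number (exact permutation p = 0.0127), with a rule of 4 or more numbers (p = 0.00423) and with members chosen from brain samples alone (p = 0.0138). It also passed with V names joined. Of 7 alternatives the other 3 did not pass. These left out public clonotypes of 1% or more, kept unresolved CDR3s, or joined brain and ovary samples. Among them the lowest difference was 0.625 points and the highest exact permutation p was 0.430. With a number left out the difference ran from 2.17 to 10.9 points. The descriptions of the samples end in an S with an index, whose meaning the labels do not give. In brain the indices of a treatment are close, 1 to 3 for the untreated samples and 4 to 7 for the concurrent combination. They are 9 to 12 for trametinib, 13 to 16 for the lead-in and 21 to 24 for the lead-in combination. Treatment and the order of these indices cannot be told apart, and the part of either in the overlap was not tested.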

How the data were processed

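Counts were used as the authors deposited them: raw whole numbers for each combination of V, J and CDR3 residues, not normalized, in 1 table with a column for each of 29 samples. Libraries were made from RNA with the QIAseq Immune Repertoire kit, per the labels' protocols. Not given in the sources used here were the aligner, the clonotype caller with its filters and the kind of count (reads or molecules). Only the build GRCh38, a human one, appears per the submitters' processing notes, so coordinates were left out. All 25 single TRBV and 12 TRBJ names matched RefSeq names of GRCm38.p6.

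Of 27517 TRB rows, 133 with an unresolved CDR3 were left out. Counts of the columns of a number were summed, and columns held 266 to 7067 TRB counts in brain and 16179 to 51674 in ovary. Public and private clonotypes were compared within each number and the differences tested with exact sign-flip permutation tests, adjusted by Benjamini-Hochberg. Numbers with under 10 public clonotypes (number 7) and segments with under 20 rows in the table were left out of these tests. Consensus residues were those carried by over 50% of the clonotypes of a segment. No count model was used. Clonotypes named are the 10 found in most numbers and the 3 of highest share in a number, those with more than 14 residues by segments and length only, and neighbours named beside them were chosen after their values were seen. The members, lists and rules were chosen with earlier results of these data known.

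The main test of ovary against brain was unpaired, and pairing by number was an alternative run. Whether the organs of a number belong together was checked. TRBV usage, as deviations from the mean of the organ, correlated between organs at 0.415, 0.462, 0.402, 0.536 and 0.278 in numbers 1, 3, 10, 12 and 13, each over 0.1. Pairs of different numbers ran from -0.505 to 0.320, and several of these also exceeded 0.1. The highest, brain of number 10 with ovary of number 1, exceeded the matched value of number 13. A value over 0.1 thus does not by itself show that a pair belongs together. No 2 columns were identical. The sign-flip test of CDR3 length was tried on simulated data, with clonotypes drawn independently for each number. Clonotypes shared between numbers were not part of that simulation, and the other tests were not simulated. The computations used numpy 2.4.6, pandas 2.3.3, scipy 1.17.1 and matplotlib 3.10.9 under Python 3.11.15. Alternatives covered the minimum count, the number of numbers, joined V names, brain alone, clonotypes of 1% or more, weighting by count, private clonotypes of 2 or more counts and each number left out.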

Additional observations from a re-analysis of the deposited data

Results flagged for a closer look

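Of 48 sets of values checked, 7 held a number that stood far from the others. A rate of about 1 in 20 would hold for independent sets of evenly measured values. These sets share clonotypes, and the numbers differ in depth, so 7 of 48 cannot be set against that rate. Where a number has few public clonotypes, a single one moves a share by several points. Number 8, the trametinib brain number with 17 public clonotypes, stood apart in 5 of the 7. There the public minus private difference in middle residues was -0.331 (next value -0.814), that in TRBV13-2 was -8.42 percentage points, in TRBV15 4.48, in TRBV20 15.9 and in TRBJ2-3 -10.5 points. In number 12 the difference in TRBV23 was -1.37 points, with 0 public clonotypes of that segment. In number 11 the difference in TRBJ1-3 was 4.15 points.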

How the results depend on the processing

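Length, middle residues, leading runs and neighbours of public clonotypes kept their direction and passed under each alternative run, and with any number left out. So did the share of single counts, where a minimum of 2 counts was not run for abundance, since it fixes the outcome. Length differed by -0.360 to -0.299 residues with a number left out and by -0.591 to -0.188 over the other alternatives. The trailing run did not pass when clonotypes were weighted by count (0.205 residues, exact permutation adjusted p = 0.131), nor did the log2 count against private clonotypes of 2 or more counts (0.498). The glycine difference was 1.08 points with a minimum of 2 counts, -4.77 with 4 or more numbers, -5.11 in brain alone, 2.05 without public clonotypes of 1% or more, 3.74 weighted by count and 2.06 against private clonotypes of 2 or more counts, and 2.41 to 3.56 with a number left out, 5 of 9 such fits missing the threshold. Segments past the threshold were 8 (1 higher) weighted by count, 0 (0 higher) with each public clonotype in 1 number and 1 of 12 J segments (1 higher) with V names joined, which gave 347 public clonotypes, and 13 to 18 (5 to 7 higher) with a number left out.

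No treatment test passed under any alternative. The anti-PD-L1 difference turned to -0.197 with 4 or more numbers, -0.667 with V names joined, -0.160 in brain alone and -0.668 as a percent of distinct clonotypes, and ran from -0.162 to 2.28 with a number or part left out. Trametinib turned to -0.412 with V names joined (0.393 to 2.50 with 1 left out), and the lead-in to -0.175 by distinct clonotypes (0.927 to 2.75). The ovary difference stayed 3.16 with the number as a block, which pairs the organs (exact permutation p = 0.125), and the same block gave exact permutation p = 0.0625 by distinct clonotypes. It was 2.46 with a minimum of 2 counts, 1.79 with 4 or more numbers, 1.90 with V names joined, -1.59 by distinct clonotypes and 2.21 to 4.06 with a number left out. With members chosen from other brain numbers it was 1.92 and from other ovary numbers 1.91, both added after the data were seen, and neither passed. The overlap within treatments exceeded that between them by 10.1 points with a minimum of 2 counts and by 16.1 with 4 or more numbers. It did so by 3.33 with V names joined and by 13.3 in brain alone, and these 4 runs passed the threshold. The other 3 of 7 alternatives did not pass, and their lowest difference was 0.625 points. With a number left out the overlap difference ran from 2.17 to 10.9 points. Depth limits number 7 most, which has 605 TRB counts and entered no test of sequence.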
